A study of Mus musculus with 2 samples.

Results

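The 10 genes described here make nitric oxide and reactive oxygen in the colon lining or supply and share the same substrate, out of 22350 gene symbols listed in the series. They were chosen by symbol as Nos2, Ass1, Arg1, Arg2, Nox1, Cyba, Noxo1, Noxa1, Duox2 and Duoxa2, and all 10 had a value in each library. Colon epithelial cells came from Pkm2-/- mice and from wild type mice, all of strain C57BL/6 and all given 2.5% DSS (dextran sulfate sodium), which damages the mucosa of the colon, for 3 days. Messenger RNA was sequenced from 1 library per genotype, and no untreated sample was analysed here. The sources used here do not give the age of the mice, how many animals a library holds or how the Pkm2 allele was made. With 1 library per genotype there was no replicate and no test, and genotype, animal and preparation cannot be told apart.

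Inducible nitric oxide synthase turns arginine into nitric oxide and citrulline, argininosuccinate synthase starts the return of citrulline to arginine, and the arginases split arginine into ornithine and urea, so these enzymes share 1 pool of substrate. NADPH oxidases pass electrons from NADPH across a membrane to oxygen. In the colon epithelium the main enzymes are NOX1, a superoxide source that works with small partner proteins, and DUOX2, which releases hydrogen peroxide at the apical surface after its maturation factor DUOXA2 has brought it out of the endoplasmic reticulum. Both oxidases are known for their part in defence against microbes at the mucosal surface.

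Duox2 and Duoxa2 are neighbours on chromosome 2 that are read in opposite directions from a shared stretch of DNA, and they were the oxidase genes with the lowest log2 ratios. On GRCm38, Duox2 (ENSMUSG00000068452) lies at 122279247 to 122298449 on the minus strand and Duoxa2 (ENSMUSG00000027225) at 122298900 to 122302885 on the plus strand, so that 451 bases separate their GENCODE starts. The RefSeq starts lie 673 bases apart. The promoter windows below, from RefSeq on GRCm38.p6, run from 250 bases before the RefSeq start to 50 bases from it onward, and are shown for these 2 genes and for Nox1, the oxidase gene with the highest ratio. For Nox1 the RefSeq start, at 134111854, lies inside the GENCODE gene, which begins at 134221956 on the minus strand. That of Duox2, at 122298227, also lies inside its GENCODE gene, which begins at 122298449. Most of the Duox2 window therefore lies within that gene. The windows of Duox2 and Duoxa2 do not meet, and the bases between them were not searched. Capitals mark matches to the motifs searched.
Duox2, chr2:122298178-122298477, minus strand: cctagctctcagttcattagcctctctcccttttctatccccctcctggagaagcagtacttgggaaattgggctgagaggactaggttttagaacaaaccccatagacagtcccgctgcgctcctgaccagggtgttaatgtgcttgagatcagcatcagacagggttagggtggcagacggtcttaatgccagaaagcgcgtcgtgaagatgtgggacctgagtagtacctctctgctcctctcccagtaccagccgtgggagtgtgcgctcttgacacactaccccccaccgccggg
Duoxa2, chr2:122298650-122298949, plus strand: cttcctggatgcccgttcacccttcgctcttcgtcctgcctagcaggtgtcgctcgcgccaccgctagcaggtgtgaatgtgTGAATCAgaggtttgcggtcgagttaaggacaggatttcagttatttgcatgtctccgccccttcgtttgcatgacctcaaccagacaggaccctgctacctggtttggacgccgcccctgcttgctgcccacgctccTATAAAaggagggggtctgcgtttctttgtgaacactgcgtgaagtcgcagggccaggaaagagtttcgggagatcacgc
Nox1, chrX:134111805-134112104, minus strand: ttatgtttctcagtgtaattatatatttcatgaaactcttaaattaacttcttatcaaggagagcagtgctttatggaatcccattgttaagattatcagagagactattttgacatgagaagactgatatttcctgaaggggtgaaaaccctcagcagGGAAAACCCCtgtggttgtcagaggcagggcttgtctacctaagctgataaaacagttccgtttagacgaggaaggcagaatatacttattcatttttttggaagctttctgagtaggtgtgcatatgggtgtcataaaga

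Windows were found for 7 of the 10 genes, namely Noxa1, Ass1, Duox2, Duoxa2, Cyba, Noxo1 and Nox1. They were searched on both strands for an interferon-gamma activated site (TTCNNNGAA), an interferon-stimulated response element, an antioxidant response element (TGACNNNGC), an AP-1 motif (TGANTCA) and the kappaB consensus, the DNA motif of NF-kB. No 2 matches in these windows overlapped. In Duoxa2 the capitals at 168 to 162 bases before the start are an AP-1 match, a motif held by 7.81% of all 32851 windows. The second run of capitals in Duoxa2, at 30 to 25 bases before the start, is the TATA box TATAAA, a motif added after the windows had been read and held by 13.6% of all windows. In Nox1 the capitals at 91 to 82 bases before the start are a kappaB match on the opposite strand. Noxa1 had the other kappaB match, at 249 to 240 bases before its start, and 8.46% of all windows hold the motif. None of the 7 windows held the interferon-gamma activated site, the interferon-stimulated response element or the antioxidant response element, which 8.30%, 3.44% and 12.4% of all windows hold. The windows differed in base composition, with a GC content of 38% in Nox1, 55.3% in Duox2, 56.7% in Duoxa2 and 80.3% in Noxo1, beside a median of 52.7% over all windows.

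Values are FPKM, fragments per kilobase relative to the mapped total, so that levels can be set side by side between genes. The log2 ratio is log2((knockout FPKM + 1)/(wild type FPKM + 1)), which shrinks differences between low values, while a fold is the plain ratio of FPKM values. Genes entered the counts below when the 2 libraries averaged 1 FPKM or more, as 12429 genes and 9 of the 10 described here did. From the worth of a single fragment among the lowest values, depth was estimated at 21600000 fragments for the knockout library and 18800000 for the wild type library. The 95% counting intervals rest on these estimates and cover counting error only, neither animals nor preparations.

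Of the 9 counted genes, 2 were at least 2-fold lower in the knockout library on the log2 scale, Arg2 and Duoxa2, beside 1.9% of all such genes in the series, and 0 were at least 2-fold higher, beside 1.42%. Duox2 lay just short of the line, at a log2 ratio of -0.98, and the nearest gene past it was Duoxa2, at -1.31. At 1.5-fold, 3 of the 9 were lower, beside 5.29% of all genes, and 0 were higher, beside 4.46%. The other 6 lay between -0.06 and 0.43, and 5 of the 9 had a ratio above 0, beside 58.8% of all genes. The median log2 ratio of the 9 was 0.02, and that of all 12429 genes was 0.06. The low ratios therefore belonged to the DUOX2 pair and to the mitochondrial arginase, while Nos2, Ass1, Noxo1 and Noxa1 were close to the bulk of the genes. Cyba and Nox1 stood higher, above 75.2% and 91.5% of the counted genes, and short of 1.5-fold.

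**Figure D1:**
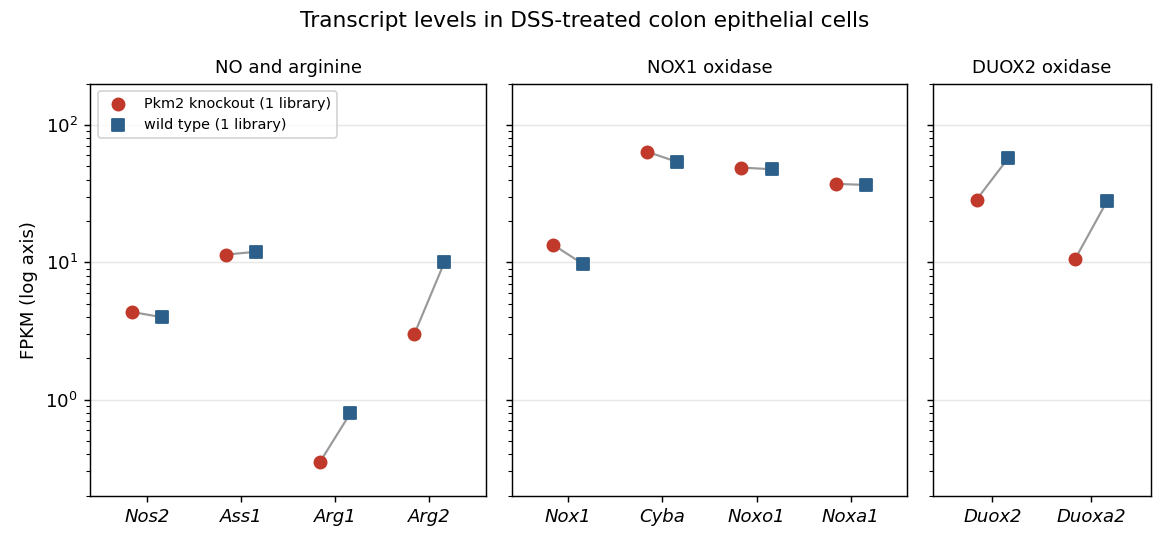
FPKM on a log axis of the 10 genes, with the Pkm2 knockout library as a red circle left of the wild type library as a blue square, 1 library each and no error bar. Arg2, Arg1, Duox2 and Duoxa2 stand lower in the knockout library, Nox1 and Cyba stand higher, and the points of Nos2, Ass1, Noxo1 and Noxa1 lie nearly level.

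Nos2 (ENSMUSG00000020826, chromosome 11, 78920787 to 78960254), which encodes inducible nitric oxide synthase, stood at 4.35 FPKM in the knockout library and 3.98 FPKM in the wild type library. The fold was 1.09 (95% counting interval 0.939 to 1.27), which includes 1, so the levels were not distinguishable at this depth. Its level was higher than that of 24.5% of the counted genes in the knockout library and 23.1% in the wild type library, so it was a low-abundance transcript in each. In bulk libraries such as these, fewer cells that express a gene and less RNA per cell cannot be told apart.

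Ass1 (ENSMUSG00000076441, chromosome 2, 31470207 to 31520672), the citrulline-using enzyme, stood at 11.4 FPKM in the knockout library and 11.9 FPKM in the wild type library. Its fold of 0.954 (95% counting interval 0.827 to 1.10) also included 1. The gene was more abundant than Nos2 in each library, at 2.62 times its FPKM in the knockout and 3.00 times in the wild type library.

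Arg2 (ENSMUSG00000021125, chromosome 12, 79130777 to 79156301), the mitochondrial arginase, had the lowest ratio of the 10 genes. It stood at 3.01 FPKM in the knockout library and 10.1 FPKM in the wild type library, 3.34-fold lower (95% counting interval 2.62 to 4.26), with a log2 ratio of -1.46. Only 0.877% of the counted genes had a lower ratio. The level of Arg2 was higher than that of 17.2% of the counted genes in the knockout library, against 49.2% in the wild type library.

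Arg1 (ENSMUSG00000019987, chromosome 10, 24915221 to 24927484), the cytosolic arginase of liver and of some macrophages, was scarce. It stood at 0.354 FPKM in the knockout library and 0.796 FPKM in the wild type library, which is about 11 and 22 fragments, and so stayed under the minimum for counting. The plain fold was 2.25 lower in the knockout library, with a wide 95% counting interval of 1.07 to 5.23. Summed, both arginases came to 3.36 FPKM in the knockout library and 10.8 FPKM in the wild type library, so that Arg2 made up most of the arginase transcript in each.

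Set against Nos2 within the same library, a ratio that does not depend on how a library was scaled, Arg2 was at 0.691 times the FPKM of Nos2 in the knockout and 2.52 times in the wild type library. The order of the enzymes that use arginine thus differed between the libraries, with Nos2 above Arg2 in the knockout and Arg2 above Nos2 in the wild type library.

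Nox1 (ENSMUSG00000031257, chromosome X, 134086421 to 134221956), the catalytic subunit, stood at 13.4 FPKM in the knockout library and 9.68 FPKM in the wild type library. It was 1.39-fold higher (95% counting interval 1.23 to 1.56), and its log2 ratio of 0.43 was above that of 91.5% of the counted genes. This was the highest ratio of the 10 genes, and it lay inside the middle 95% of all genes, which runs from -0.86 to 0.75.

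Cyba (ENSMUSG00000006519, chromosome 8, 122424776 to 122432930), the small membrane subunit that stabilises NOX1, was the most abundant of the 10 genes in the knockout library. It stood at 63.7 FPKM in the knockout library and 53.8 FPKM in the wild type library, 1.18-fold higher (95% counting interval 1.08 to 1.303). Its log2 ratio of 0.24 was above that of 75.2% of the counted genes.

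Noxo1 (ENSMUSG00000019320, chromosome 17, 24696234 to 24700529), the organiser that holds the complex at the membrane, stood at 48.99 FPKM in the knockout library and 47.6 FPKM in the wild type library. Noxa1 (ENSMUSG00000036805, chromosome 2, 25085667 to 25095149), the activator, stood at 37.2 FPKM in the knockout library and 36.6 FPKM in the wild type library. Their folds were 1.03 (95% counting interval 0.970 to 1.09) and 1.02 (95% counting interval 0.938 to 1.10), and each interval included 1. Their log2 ratios of 0.04 and 0.02 were below 0 with equal library medians and with equal upper quartiles, so they had no direction that held across scalings.

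The partners of Nox1 were more abundant per length than Nox1 itself in each library. Noxo1 was at 3.65 times the FPKM of Nox1 in the knockout and 4.92 times in the wild type library, Noxa1 at 2.77 and 3.78 times, and Cyba at 4.74 and 5.56 times. Nox1 was thus the least abundant of these 4 transcripts in each library, and its distance to the other 3 was smaller in the knockout library.

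Duox2, which encodes the peroxide-producing dual oxidase, stood at 28.6 FPKM in the knockout library and 57.3 FPKM in the wild type library. It was 2.004-fold lower (95% counting interval 1.93 to 2.09), and 2.02% of the counted genes had a lower log2 ratio. With about 3766 fragments in the knockout and 6587 in the wild type library it had the most fragments of the 10 genes. Its transcript, at 6.11 kb, was also the longest of theirs. In the wild type library Duox2 was the most abundant of the 10, and in the knockout library it stood below Cyba, Noxo1 and Noxa1.

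Duoxa2, the maturation factor, stood at 10.6 FPKM in the knockout library and 27.9 FPKM in the wild type library. It was 2.62-fold lower (95% counting interval 2.32 to 2.97), and 1.13% of the counted genes had a lower log2 ratio. Duoxa2 was at 0.373 times the FPKM of Duox2 in the knockout library and 0.487 times in the wild type library, and the counting intervals of the 2 folds did not overlap. The related genes Duox1 and Duoxa1 were scarce, with Duox1 at 0.180 and 0.121 FPKM and Duoxa1 at 1.29 and 1.85 FPKM in the knockout and wild type libraries. The dual oxidase transcript of these cells was therefore nearly all Duox2.

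**Figure D2:**
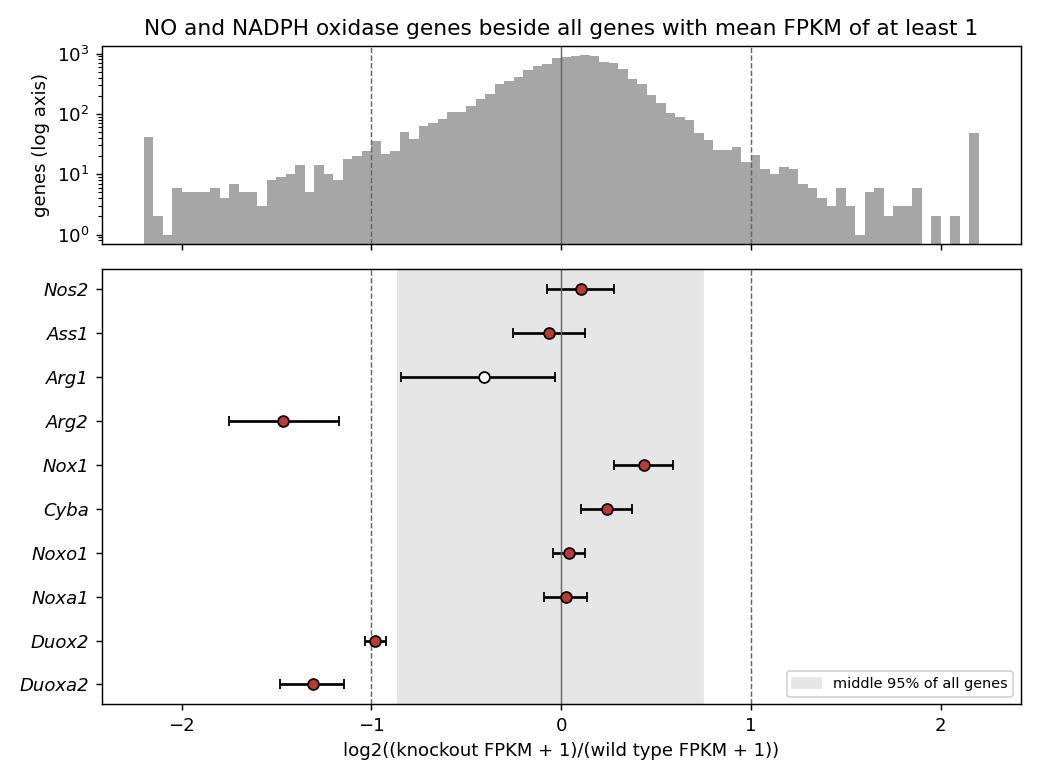
Upper panel, number of genes on a log axis by log2 ratio among the 12429 counted genes, with values beyond 2.2 in either direction placed in the end bins. Lower panel, log2 ratio of each of the 10 genes with its 95% counting interval, dashed lines at 2-fold, and Arg1 as an open circle because its mean was under 1 FPKM; Arg2, Duoxa2 and Duox2 lie left of the grey band that holds the middle 95% of all genes, and the other 7 lie within it.

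**Figure D3:**
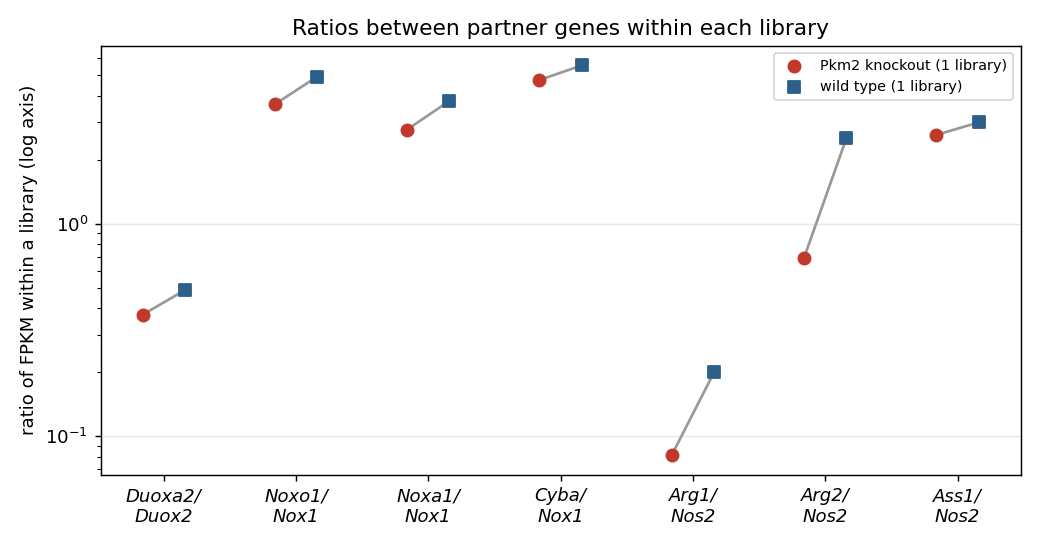
Ratio of FPKM between partner genes within a library, on a log axis, with the Pkm2 knockout library as a red circle left of the wild type library as a blue square, 1 library each and no error bar. The ratio of Arg2 to Nos2 is 0.691 in the knockout and 2.52 in the wild type library, while the ratios to Nox1 and that of Duoxa2 to Duox2 lie closer together.

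The sources used here do not say whether reads were counted by strand, and 5 of the genes share exon bases with a gene on the other strand, so their reads cannot be told apart there. The overlap covered 70.4% of the exon bases of Noxo1, with Tbl3 (15.2 FPKM in the knockout and 16.8 FPKM in the wild type library), and 42.8% of those of Duoxa2, with Duoxa1. It covered 20.0% of the exon bases of Arg2 with Vti1b (31.3 and 29.8 FPKM), 12.1% of those of Nox1 with Cstf2 (17.0 and 13.6 FPKM) and 3.09% of those of Noxa1 with Entpd8 (51.4 and 73.1 FPKM). Arg2 shares a further 8.12% with the antisense entry Gm48780, which has no entry in either library. The log2 ratio of Vti1b was 0.07, beside -1.46 for Arg2, and that of Duoxa1 was -0.32, beside -1.31 for Duoxa2. Nos2, Ass1, Arg1, Cyba and Duox2 share no exon bases with another gene.

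Genes that surround these enzymes were set beside them in 9 lists, which hold 108 genes, 105 of them listed in a file and 91 of them counted. Of the 91, 2 were at least 2-fold higher and 1 was at least 2-fold lower in the knockout library, and their median log2 ratio was 0.06. These shares, 2.198% and 1.10%, stood beside 1.42% and 1.9% of all genes.

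Among other nitric oxide synthases and their regulators, 0 of 9 counted genes were 2-fold apart, with a median of 0.10. Nos1 and Nos3, the neuronal and endothelial synthases, named after their values were seen, were at 0.017 and 0.011 FPKM in the knockout library and, with no entry there, were taken as 0 in the wild type library. Nos2 was therefore nearly the only nitric oxide synthase transcript of these cells. The gene of this list with the highest mean over both libraries was calmodulin, Calm2, the calcium sensor that binds nitric oxide synthases, at 263 FPKM in the knockout and 234 FPKM in the wild type library. Of the 7 genes of tetrahydrobiopterin, the cofactor that nitric oxide synthases need, 0 were 2-fold apart and the median was 0.06. Sepiapterin reductase, Spr, had the highest mean of that list, at 54.8 FPKM in the knockout and 48.6 FPKM in the wild type library, where Qdpr stood above it at 52.9 FPKM.

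Genes of arginine supply, recycling and transport had a median of 0.26, with 0 at 2-fold. A ratio above 0 was seen in 8 of 10, beside 58.8% of all genes. Their most abundant member was the amino acid transporter heavy chain Slc3a2, at 32.2 FPKM in the knockout and 30.3 FPKM in the wild type library. Genes that use arginine or ornithine for proline, polyamines and creatine had a median of -0.06 over 16 counted members. The antizyme Oaz1, a brake on ornithine decarboxylase, was the most abundant of them, at 189 FPKM in the knockout and 167 FPKM in the wild type library. The gene at least 2-fold lower in this list was Gatm, the mitochondrial enzyme that moves the amidino group of arginine to glycine in the first step of creatine synthesis. Gatm stood at 1.63 FPKM in the knockout library and 6.02 FPKM in the wild type library, 3.70-fold lower (95% counting interval 2.88 to 4.78). The other 15 counted members of the list lay within 2-fold.

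Of the other NADPH oxidase subunits, 5 of 11 were counted, 0 of them were 2-fold apart, and their median was 0.28. The GTPase Rac1, which activates NOX1, led with 161 FPKM in the knockout and 140 FPKM in the wild type library. Genes of this list that were named after their values were seen include Cybc1, listed in the files as BC017643 and known as a chaperone of the phagocyte oxidase, at 24.8 FPKM in the knockout and 15.6 FPKM in the wild type library. Rac2, the GTPase of blood cells, stood at 5.70 FPKM in the knockout and 3.09 FPKM in the wild type library, and the catalytic subunit of phagocytes, Cybb, at 0.358 and 0.217 FPKM. Cybb was thus far below Nox1 and Duox2 in each library. Of 12 counted genes that remove superoxide and peroxide, 7 had a ratio below 0 and 5 above, beside 58.8% of all genes above 0. None of the 12 was 2-fold apart, and the median was -0.25. The peroxiredoxin Prdx6 had the highest mean, at 246 FPKM in the knockout library, where Prdx1 stood above it at 266 FPKM, and 299.8 FPKM in the wild type library.

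Signalling genes upstream of these enzymes were compared last, beside 1.42% of all genes at least 2-fold higher and 1.9% at least 2-fold lower. Of 14 genes of interferon-gamma and NF-kB signalling, known to induce Nos2, 1 was at least 2-fold higher and the median was -0.01. This was Irf1, a transcription factor of the interferon response, at 247 FPKM in the knockout and 103 FPKM in the wild type library. Irf1 was 2.41-fold higher (95% counting interval 2.32 to 2.49), beside the fold of 1.09 of Nos2 itself. Of 12 genes of IL-17, IL-22 and pattern receptor signalling, known to act upstream of Duox2, only Nod1, a cytosolic sensor of bacterial cell wall fragments, was at least 2-fold higher, at 12.3 FPKM in the knockout and 5.55 FPKM in the wild type library, and the median was 0.02. The receptor subunit Il17rc was the most abundant of these, at 66.2 FPKM in the knockout and 51.5 FPKM in the wild type library. Of 6 counted genes of interleukin-4 and interleukin-13 signalling, 0 were 2-fold apart and the median was 0.08, with the nuclear receptor Ppard as the most abundant, at 70.5 and 72.0 FPKM in the knockout and wild type libraries.

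**Figure D4:**
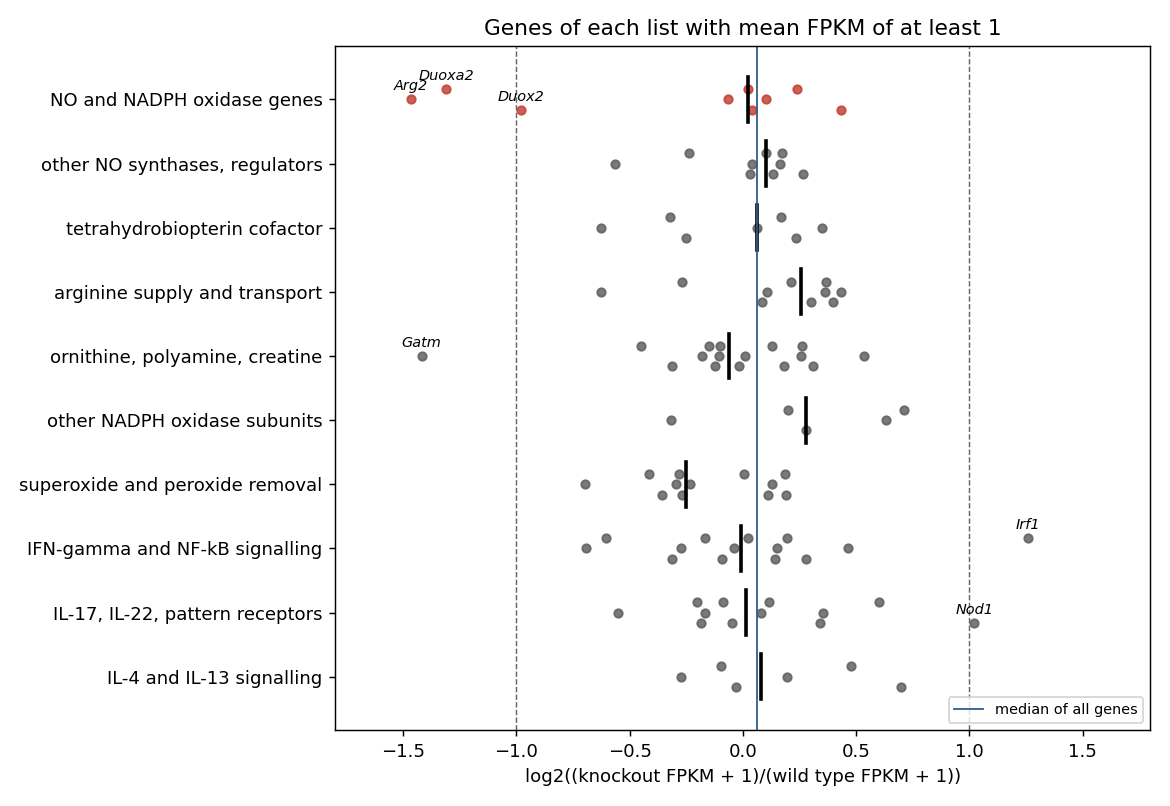
Log2 ratio of each counted gene in the 10 NO and NADPH oxidase genes (red) and in 9 surrounding lists (grey), with black bars for list medians, a blue line at the median of all genes and dashed lines at 2-fold. Arg2, Duoxa2 and Gatm lie past the lower line, Irf1 and Nod1 past the upper one, and Duox2 at -0.98 lies beside the lower line.

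The libraries were checked by their labels. Pkm, the targeted gene, stood at 86.2 FPKM in the knockout and 281 FPKM in the wild type library, a gene-level value that covers both splice forms. All 9 epithelial markers were counted and summed to 7278 FPKM in the knockout and 6343 FPKM in the wild type library. Markers of other cells differed between the libraries. Beside their counts past 2-fold, 1.42% of all counted genes were at least 2-fold higher and 1.9% at least 2-fold lower. The 11 T and NK cell markers summed to 92.5 and 22.9 FPKM in the knockout and wild type libraries, with 7 of 8 counted ones at least 2-fold higher and none of the 11 at 0. The 12 macrophage markers summed to 16.4 and 9.58 FPKM, and Cd163 had no entry in the knockout library. Of 6 counted ones, 1 was at least 2-fold higher, Fcer1g, at 4.22 and 0.804 FPKM. A ratio above 0 was seen in 4 of these 6 and below 0 in 2, beside 58.8% of all genes above 0. Of 11 neutrophil markers 8, S100a8, S100a9 and Mpo included, had no entry in either library and were taken as 0, and the sum of 13.2 and 25.5 FPKM came almost wholly from Ly6g. The 5 erythrocyte markers summed to 1.91 and 24.5 FPKM, with 4 of 4 counted ones at least 2-fold lower and none at 0, and the 7 endothelial and smooth muscle markers to 1.07 and 1.496 FPKM, with no entry for Des in the knockout and none for Cdh5 in the wild type library. The part of these cells in the values of Nos2, the arginases and the oxidases was not tested.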

How the data were processed

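Colon epithelial cells of Pkm2 knockout and wild type mice gave 1 library each. The values were used as FPKM as the authors deposited them, a unit read from the tools named and from the numbers themselves, since the files have no header. Per the submitters' processing notes, versions of Cuffdiff (1.3.0 and 2.2.1), Cufflinks (2.2.1), TopHat2 (2.1.1) and Bowtie2 (2.2.9) were used on build mm8. GENCODE M21 holds 99.4% of the 22384 gene IDs, and 99.96% of these overlapped the gene's locus on GRCm38, so coordinates are on GRCm38. The files' loci can span several genes, and GENCODE's are given instead. Only values above 0 are listed, and a gene without an entry was taken as 0, though it need not be unexpressed.

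Rows sharing a symbol were summed, the pseudocount was 1 FPKM and genes averaging 1 FPKM or more were counted, by size alone. Depth came from the modal lowest value times length in genes with 1 transcript longer than 1.5 kb (185 genes near the mode in the knockout and 202 in the wild type library), and intervals are Clopper-Pearson on implied fragments of the longest transcript. The steps were run on simulated data with counting error only and the same transcript lengths. The choice of the longest transcript was therefore not tested. The surrounding genes named are those at least 2-fold apart and that with the highest mean of each list, unless said otherwise. The members and lists were chosen with earlier results of these data known, and 2 genes of the lists are not reported here. Python 3.11.15, pandas 2.3.3 and SciPy 1.17.1 were used.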

Additional observations from a re-analysis of the deposited data

How the results depend on the processing

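No paired analysis was possible because there was 1 library per genotype, and for the same reason no library could be left out. Another pseudocount, another filter on low values, 3 rescalings of the libraries, a threshold of 1.5-fold and the highest row of a symbol were tried. The sign of the log2 ratio held in 68 of 72 values of the 10 genes. The 4 others were those of Noxo1 and Noxa1 with equal library medians and equal upper quartiles. Only the 3 rescalings could change a sign for these genes. With another pseudocount, another filter or the highest row the sign was fixed in advance, so most of the 72 values do not bear on it. Arg2 ranged from -1.71 to -0.91, Duoxa2 from -1.39 to -1.07, Duox2 from -1.06 to -0.89 and Nox1 from 0.33 to 0.48. Of the 9 counted genes, 1 was at least 2-fold lower with a pseudocount of 5, which left Duoxa2 alone, beside 0.998% of all genes. With a pseudocount of 0.1, equal library medians or equal upper quartiles, 3 were at least 2-fold lower, which added Duox2. The share of all genes at least 2-fold lower was 2.9%, 2.25% and 2.196% at these settings. Of the surrounding genes, 0 were at least 2-fold lower with a pseudocount of 5 or when a mean of 5 FPKM was required. The share of all genes was 0.998% and 1.71% there. The 1 gene otherwise past the line, Gatm, has a low level. Among the surrounding genes, 1 was at least 2-fold higher with a pseudocount of 5, equal library medians or equal upper quartiles. Nod1 fell short of the line there, and the share of all genes was 0.684%, 1.21% and 1.25%. At 1.5-fold, 6 of the 91 surrounding genes counted were higher and 6 were lower, beside 4.46% and 5.29% of all genes. Depth limits Arg1 most, at about 11 fragments in the knockout and 22 in the wild type library.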
